A study of Mus musculus with 2 samples.

Results

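Accessible sites that had a peak in resting macrophages, often a weak one, and a fold enrichment at least 2 times higher after stimulation are described here. Chromatin accessibility was measured by ATAC-seq, in which a transposase cuts and tags DNA not covered by nucleosomes, in mouse bone marrow-derived macrophages (BMDMs), cells differentiated from marrow in M-CSF at 20 ng/ml. Both groups were wild type and held 1 library each: untreated cells, and cells given R848 (resiquimod) at 100 ng/ml for 2 h. The sex, age and number of mice, and any pooling of animals, are not given in the sources used here. Each library had its own peak list, on the mm10 build. A peak of the R848 list was taken when it lay on chromosomes 1 to 19 with a −log10 q of at least 5, overlapped an untreated peak by at least 1 bp, had its summit within 100 kb of an end of a protein-coding gene, and had a fold enrichment at least 2 times the largest fold of the untreated peaks it overlapped. The fold enrichment is the peak caller's own value, the reads stacked at a summit relative to the local background, 1 added to both. Of 114785 peaks in both lists, 37725 were in the R848 list, 4540 of those met every condition but the last (eligible shared peaks), and 493 met them all. The members were thus 10.9% of the eligible shared peaks.

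R848 is a synthetic agonist of Toll-like receptor 7, an endosomal sensor of single-stranded RNA in mouse macrophages. The receptor signals through the adaptor MyD88 and the IRAK and TAK1 kinases to the transcription factors NF-kB and AP-1 and to interferon regulatory factors. Lineage factors such as PU.1 and C/EBP keep many macrophage enhancers and promoters open before any stimulus, so that signal-dependent factors can act on DNA that is already accessible. The peaks described here were called in both libraries, with strengths in the untreated library that are given below.

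Promoter sequence was available from RefSeq for part of the members, and 8 are printed, at genes named in the results. Members that held a motif match were preferred, so these stretches do not show how common a match is. The 300-base windows of Atox1, Usp36, Ppp6c and Nfkbib, also members, held no match to any of the 15 motifs. The stretches are the 250 bases before an annotated start, 5′ to 3′ on the strand of the gene, from GRCm38.p6, the NCBI name of the same assembly. Capitals mark matches to any of 15 motifs searched on both strands.
Nxt1 (chr2:148672365-148672614, + strand): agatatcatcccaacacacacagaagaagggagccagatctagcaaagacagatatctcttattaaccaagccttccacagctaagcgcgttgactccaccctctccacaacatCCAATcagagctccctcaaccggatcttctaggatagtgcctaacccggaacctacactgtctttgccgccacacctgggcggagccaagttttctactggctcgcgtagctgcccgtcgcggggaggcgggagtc
Mrtfa (chr15:81190737-81190986, - strand): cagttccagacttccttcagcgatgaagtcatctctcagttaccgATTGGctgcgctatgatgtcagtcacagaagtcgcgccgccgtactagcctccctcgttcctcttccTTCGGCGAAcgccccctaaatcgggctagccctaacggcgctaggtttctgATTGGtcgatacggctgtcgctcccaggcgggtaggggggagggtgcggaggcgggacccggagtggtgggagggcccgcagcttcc
Ero1b (chr13:12565633-12565882, + strand): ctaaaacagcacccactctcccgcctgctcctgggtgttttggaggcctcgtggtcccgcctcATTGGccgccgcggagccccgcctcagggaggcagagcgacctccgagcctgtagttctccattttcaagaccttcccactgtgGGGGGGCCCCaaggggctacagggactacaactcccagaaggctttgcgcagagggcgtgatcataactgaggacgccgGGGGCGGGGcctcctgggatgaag
Dusp6 (chr10:99262981-99263230, + strand): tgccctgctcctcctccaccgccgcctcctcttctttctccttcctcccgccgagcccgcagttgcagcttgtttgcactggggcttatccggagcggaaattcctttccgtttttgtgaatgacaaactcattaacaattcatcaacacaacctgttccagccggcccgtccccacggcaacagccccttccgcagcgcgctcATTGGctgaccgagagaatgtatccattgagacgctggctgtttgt
Hif1a (chr12:73907617-73907866, + strand): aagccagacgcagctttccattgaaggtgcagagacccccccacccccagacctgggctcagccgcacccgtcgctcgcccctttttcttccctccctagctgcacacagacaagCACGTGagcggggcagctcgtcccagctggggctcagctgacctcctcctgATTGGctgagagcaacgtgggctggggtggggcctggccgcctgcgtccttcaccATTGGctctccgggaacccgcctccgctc
Slc7a11 (chr3:50443614-50443863, - strand): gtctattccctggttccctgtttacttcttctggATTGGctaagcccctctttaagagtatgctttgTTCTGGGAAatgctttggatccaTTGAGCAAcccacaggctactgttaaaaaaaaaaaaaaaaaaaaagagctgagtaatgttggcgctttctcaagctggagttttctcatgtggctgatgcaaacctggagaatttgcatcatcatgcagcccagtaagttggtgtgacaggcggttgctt
Trim30a (chr7:104465194-104465443, - strand): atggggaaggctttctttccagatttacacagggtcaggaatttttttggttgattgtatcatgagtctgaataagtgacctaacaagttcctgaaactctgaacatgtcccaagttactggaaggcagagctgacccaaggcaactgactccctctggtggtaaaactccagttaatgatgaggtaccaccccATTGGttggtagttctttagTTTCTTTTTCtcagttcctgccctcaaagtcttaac
Map3k7 (chr4:31963857-31964106, + strand): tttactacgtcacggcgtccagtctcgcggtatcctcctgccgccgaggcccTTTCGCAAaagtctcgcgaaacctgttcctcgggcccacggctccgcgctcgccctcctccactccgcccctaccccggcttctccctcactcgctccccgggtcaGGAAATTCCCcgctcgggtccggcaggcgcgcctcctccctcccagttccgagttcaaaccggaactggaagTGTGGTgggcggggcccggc
In Map3k7, the kinase TAK1, the match at 92 to 83 bases before the start, GGAAATTCCC, is to the NF-kB motif, and the R848 summit lay 136 bases before that start. In Ero1b, an oxidoreductase of the endoplasmic reticulum, the NF-kB match GGGGGGCCCC is a run of G and C. Trim30a, an interferon-inducible gene of the TRIM family, holds TTTCTTTTTC, a match to the IRF motif, 36 to 27 bases before the start, and its R848 summit lay 23 bases after the start. Slc7a11, the cystine transporter, holds a C/EBP match, TTGAGCAA, and its summit lay 3 bases after an annotated start. The promoters of Hif1a and Mrtfa hold 2 CCAAT boxes each, and the Nxt1 and Dusp6 stretches hold 1 CCAAT box and no other match. The 300-base windows of Trim30a and Slc7a11 were poor in CpG, with an observed over expected CpG ratio of 0 and 0.271, while those of Map3k7 (1.03) and Mrtfa (0.971) were CpG-rich.

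The members were above the typical eligible peak in R848 fold and below it in untreated fold, as the rule favours. Their R848 fold ranged from 5.00 to 16.4 with a median of 8.74, against a median of 7.05 for the other eligible peaks. Their untreated fold ranged from 2.34 to 7.77 with a median of 3.56, against 5.59 for the others. The number of reads stacked at a summit (tags), recovered from the fold and p columns, had a median of 22 in the R848 library and 6 in the untreated library. The untreated partner had a q above 0.05 at 151 of 493 members (30.6%), against 103 of 4047 other eligible peaks (2.55%). It reached the −log10 q of 5 asked of the R848 peak at 23 members (4.67%), against 47.9% of the others. Many of the lower values thus rested on peaks close to the weakest in the list. These values chose the members and are a description, not a finding.

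The fold ratio of the members had a median of 2.22 and ran up to 4.62. It was under 2.5 at 377 of 493 members and at least 3 at 28. The −log10 q limit of 5 was set on the R848 peak and not on the untreated one, which favours higher ratios. Most eligible peaks had a higher fold in the R848 list: the median ratio over all 4540 was 1.39, or 0.48 on the log2 scale. A ratio of 2 was thus 1.44 times this median. Relative to that median, the members had a median ratio of 1.60. With every ratio divided by it, 48 peaks (1.06%) reached 2, and 3 genes of the response lists were among their nearest genes, against 493 peaks (10.9%) and 22 genes. In the other direction, 35 eligible peaks (0.771%) had a ratio of 0.5 or less. When untreated peaks were chosen by the mirrored rule, 208 of 2491 (8.35%) were at least 2 times stronger in the untreated list. The members closest to the limit were at Ppa2, Gpc5 and Slc6a6 with ratios of 2.00, and the eligible peaks just below it were at Tfg, Rnmt and Kat6b with ratios of 2.00, or 1.9996, 1.9970 and 1.9970 before rounding.

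**Figure D1:**
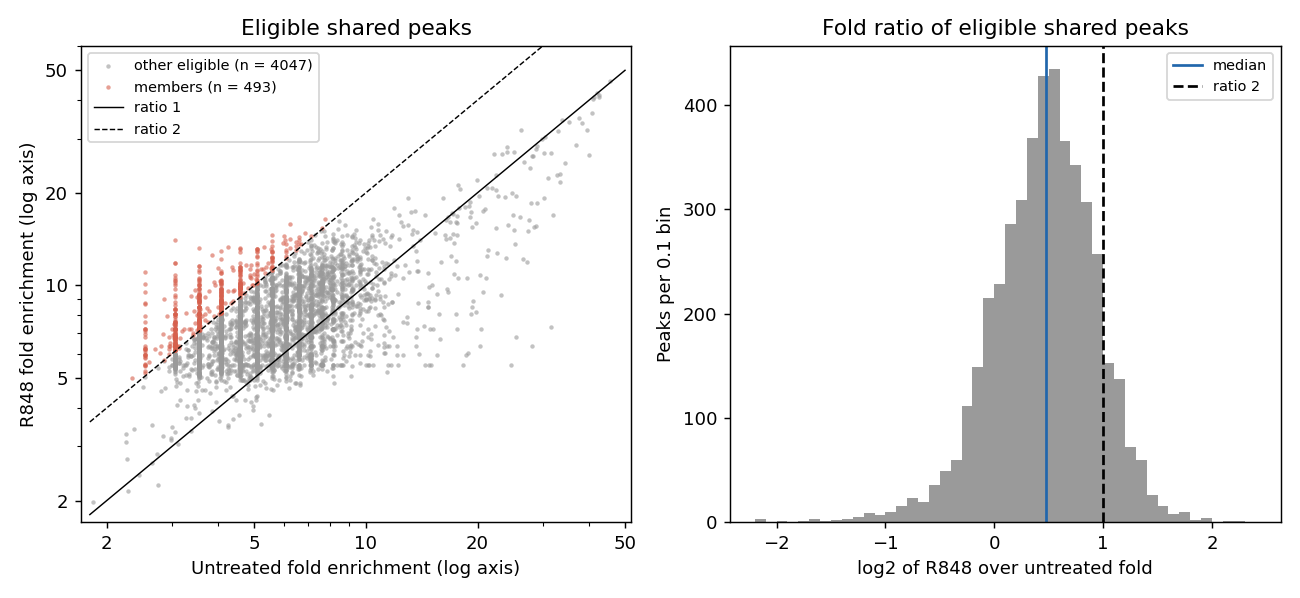
Left, R848 against untreated fold enrichment (log axes) of the 4540 eligible shared peaks, with the 493 members in red above the dashed line of a ratio of 2. Right, the log2 fold ratio of the same peaks in bins of 0.1, with the median at 0.48 left of the dashed limit. Members lie at untreated folds up to 7.77, and the strongest untreated peaks lie near or below a ratio of 1.

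Counting error was wide for single members. The ratio of tags, divided by the ratio of the genome-wide backgrounds of the libraries (1.40) to allow for depth, had a median of 2.42 among members. Its exact 95% interval, which covers counting error alone and uses the same tags as the rule, so that it describes precision and supports no difference, lay above 1 at 237 of 493 members, against 498 of all 4540 eligible peaks (11.0%). It lay above 2 at 3 members, those of Stap1, Fpr2 and Ubp1, a transcription factor gene with 9 untreated and 56 R848 tags that was named after its values were seen. With 1 library per group there is no replicate, and no difference below was tested.

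Among the 20 members of highest ratio, 14 lay within 1 kb of a gene end. That was close to the share of all members (70.6%) and of all eligible peaks (68.6%). The first was a site inside Stap1, a signalling adaptor gene, on chr5:86078644-86079298, 7358 bp from the nearer gene end. It had a fold of 3.05 with 5 tags in the untreated library and 14.1 with 37 tags after R848, a ratio of 4.62. The Nxt1 promoter (chr2:148672104-148672900), of a cofactor of nuclear mRNA export, had folds of 2.54 and 11.0. The promoter of Mrtfa, a coactivator of serum response factor, had folds of 2.54 and 10.1. These are sites that were barely called in untreated cells. Fpr2, a formyl peptide receptor of myeloid cells, had a peak 7045 bp from the gene (chr17:17900527-17901233) with 4 tags untreated and 33 after R848, and its scaled tag ratio was 5.88 with an interval of 2.09 to 22.8. The other peaks among the 20 belonged to Tvp23b, Exoc4, Tmem218, Glis2, Bcas3, Atox1, Yae1d1, Sptlc2, Usp36, Them4, Ppp6c, Iffo2, Cdc25c, Cfap20, Pfkfb3 and Ero1b. They include a copper chaperone (Atox1), a subunit of serine palmitoyltransferase (Sptlc2), an exocyst subunit (Exoc4) and a protein phosphatase (Ppp6c), with ratios from 3.19 to 3.89.

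Ranked by R848 fold in place of the ratio, the leading members were Acadm (16.4), a mitochondrial acyl-CoA dehydrogenase gene, Frmd4a (15.8), Serf2 (15.4), Prkra (14.8), an activator of the kinase PKR, and Cstf3 (14.6), a cleavage factor of mRNA 3′ ends. Their untreated folds were 7.77, 6.25, 7.62, 6.86 and 5.59. At Acadm, 15 tags stood against 57, so this member rested on more reads than most. The Frmd4a site, 53081 bp from the gene, had 19 tags untreated and 42 after R848, and its scaled tag interval of 0.896 to 2.87 included 1.

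Subunits of NF-kB were among the members. The NF-kB list had a member at 5 of 15 eligible genes, beside 11.8% of all genes with an eligible peak. Relb, the subunit of the non-canonical pathway, had a site 600 bp inside the gene (chr7:19628394-19629206) with a fold of 4.0 and 7 tags in untreated cells and 11.4 and 43 tags after R848. The ratio was 2.85, and the scaled tag ratio was 4.38 with an interval of 1.95 to 11.5. Rel, the c-Rel subunit, had a peak 313 bp before the start (chr11:23770596-23771536) with folds of 4.57 and 10.5 and tags of 8 and 36. Both peaks rested on more R848 tags than the median member, which had 22. Nfkb2, another subunit gene, named after its values were seen, was not a member. Its promoter peak had folds of 5.59 and 5.61, a ratio of 1.00.

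Genes that restrain or relay NF-kB signalling followed. Birc3, the ubiquitin ligase cIAP2 that also blocks cell death, had a peak 87 bases after a start (chr9:7872738-7873280) with folds of 4.06 and 10.05 and tags of 7 and 40, a ratio of 2.47. Nfkbib, an IkB protein that keeps NF-kB out of the nucleus, had folds of 4.41 and 9.63 at a peak 10 bp from the gene (chr7:28766336-28766852). The 8 and 25 tags behind it gave a scaled interval of 0.973 to 5.71. Otulin, which removes linear ubiquitin chains, had a peak inside the gene (chr15:27625126-27625732) with folds of 3.56 and 7.49, while the peak at its start was nearly even, at 5.59 and 6.11. Other shared peaks of this pathway, named after their values were seen, stayed under the limit. The R848 peak at the Nfkbia promoter had a fold of 4.64 and overlapped 2 untreated peaks, the stronger at 6.19, a ratio of 0.75. The summits of that pair lay 697 bp apart. The tags were 12 untreated and 21 after R848, with a scaled interval of 0.586 to 2.78. Tnfaip3, the A20 deubiquitinase, had 4 eligible peaks with ratios from 1.21 to 1.91, and Bcl3, a nuclear IkB protein, had ratios of 1.96 and 1.195.

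The Toll-like receptor signalling list had a member at 2 of 9 eligible genes, beside 11.8% of all genes with an eligible peak. Both genes encode kinases, and both members had low read support. Tbk1, a kinase that phosphorylates IRF3, had a promoter peak (chr10:121586627-121587070) with 4 tags and a fold of 2.54 untreated, and 15 tags and a fold of 5.97 after R848. Map3k7, whose promoter is printed above, had folds of 3.56 and 7.32 (chr4:31963587-31964176) and 2 overlapping untreated peaks. Both scaled intervals, 0.851 to 11.1 and 0.759 to 6.25, included 1. Ikbke and Map3k8, other kinase genes of the list, were named after their values were seen. Their eligible peaks stayed under the limit, with ratios of 1.09 and 1.39.

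Of the interferon response list, 2 of 4 eligible genes had a member, beside 11.8% of all genes with an eligible peak. Trim30a and Ifi204, which encodes an interferon-inducible DNA sensor of the p200 family, had peaks 23 and 67 bp from a gene end with ratios of 2.25 and 2.03. Both belong to families of near copies in tandem on chromosomes 7 and 1, so the placement of reads there is uncertain. Their scaled intervals included 1, at 0.978 to 9.28 and 0.679 to 7.08.

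Of the immediate early genes 3 of 21 eligible had a member (14.3%), and of the phosphatase and mRNA decay genes 1 of 6 (16.7%), beside 11.8% of all genes with an eligible peak. Dusp6, a phosphatase that switches off ERK, had 4 tags and a fold of 2.54 at its promoter untreated (chr10:99262891-99263339) and 20 tags and 6.95 after R848. Trib1, a pseudokinase that directs C/EBP factors to degradation, had a distal site 71246 bp away (chr15:59728119-59728573) with folds of 4.06 and 9.58, while its shared peak at the gene end had 6.41 and 5.95. The tags were 7 and 31 at the distal site and 14 and 24 at the gene end. The distal site was chosen by its fold ratio, and the scaled tag intervals of these sites overlapped. A difference between them was not tested. Btg2, an antiproliferative gene, had a member 9326 bp away with folds of 3.05 and 6.54. Its other 3 eligible peaks had ratios of 1.99, 1.67 and 1.37, where the lower quartile over all eligible peaks was 1.12 and the median 1.39. The scaled tag intervals of all 4 Btg2 peaks included 1. Nr4a3, an orphan nuclear receptor gene, had folds of 3.42 and 6.90 at 1719 bp (chr4:48042779-48043606).

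Of inflammatory mediators, 2 of 4 eligible genes had a member, beside 11.8% of all genes with an eligible peak. Ptgs2, the inducible cyclooxygenase of prostaglandin synthesis, had a site 56838 bp from the gene (chr1:150164860-150165383) with folds of 4.88 and 10.7 and tags of 11 and 34. Serpinb2, an inhibitor of plasminogen activators, had 5.59 and 11.2 at 3868 bp (chr1:107496808-107497232). None of the 3 eligible chemokine genes had a member. Nor did the 4 eligible genes of the antigen presentation and co-stimulation list (H2-D1, H2-K1, B2m and Cd44). These are too few to read an absence from.

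Among metabolic regulators, 3 of 16 eligible genes had a member (18.8%), beside 11.8% of all genes with an eligible peak. Pfkfb3, the enzyme whose product drives glycolysis, had a site 41697 bp outside the gene (chr2:11429540-11430010) with a fold of 3.05 and 5 tags untreated and 9.75 and 22 tags after R848, the highest ratio of any listed gene at 3.20. Hif1a, the oxygen-regulated transcription factor that also promotes glycolysis in activated macrophages, had folds of 4.06 and 11.1 and tags of 7 and 33 (chr12:73907493-73908345). That summit lay 12 bases before an annotated start within the gene, and its scaled interval was 1.46 to 8.99. Slc7a11 had folds of 3.56 and 8.99 at its inner start (chr3:50443391-50443880) and, 5327 bases into the gene from there, a shared peak with a ratio of 1.60.

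Sites near macrophage identity genes were distal. Cebpb, a transcription factor of macrophage activation, was 1 of the 2 genes with 2 members, at 63613 and 87174 bp from the gene (chr2:167753821-167754316 and chr2:167777399-167778092). The nearer had folds of 4.85 and 11.3 with 9 and 42 tags, and the farther 2.97 and 6.51 with 6 and 27 tags. Another pair of shared peaks in the same stretch had ratios of 1.51 and 1.42, near the 1.39 of all eligible peaks, and 8 R848-only peaks were also nearest to Cebpb. Itgb2, the beta-2 integrin chain, had folds of 3.37 and 9.26 inside the gene (chr10:77550981-77551362), and Tyrobp, the adaptor DAP12, had 3.24 and 7.19 at 19152 bp. The other gene with 2 members was Tbc1d31, at ratios of 2.42 and 2.12.

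**Figure D2:**
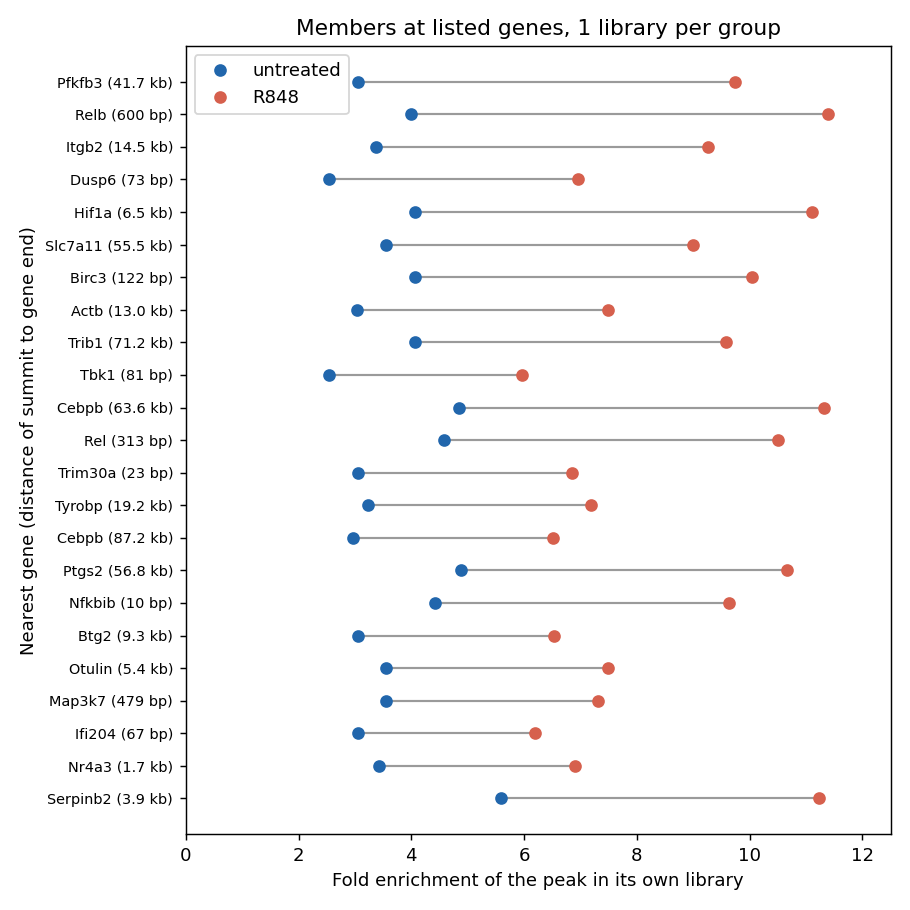
Untreated (blue) and R848 (red) fold enrichment of 23 of the 24 members nearest to a gene of the 12 lists, sorted by ratio, with the distance of the summit to the gene end. Each point is 1 library. Ratios run from 2.01 at Serpinb2 to 3.20 at Pfkfb3.

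Over all 12 gene lists, 23 genes with 24 members were found, 16 of which had a scaled tag interval above 1. Of 106 genes in the 11 response and identity lists with an eligible shared peak, 22 had a member (20.8%, 95% Wilson interval over genes 14.1% to 29.4%). Over all genes with an eligible peak, 491 of 4169 did (11.8%). The lists were chosen with earlier results of these data known, so the 20.8% and its interval are a description and support no enrichment. Listed genes had more eligible peaks each, and per peak the shares were 17.0% of 135 and 10.9% of 4540. The median ratio of the 135 peaks was 1.42, beside 1.39 over all, so the lists as a whole were not shifted by much. By list, a member was found at 5 of 15 eligible NF-kB genes, 3 of 10 macrophage identity genes, 3 of 16 metabolic genes, 3 of 21 immediate early genes, 2 of 9 Toll-like receptor signalling genes, 2 of 4 inflammatory genes and 2 of 4 interferon response genes. The phosphatase and mRNA decay list had 1 of 6, housekeeping genes 1 of 11, chemokines 0 of 3 and antigen presentation and co-stimulation 0 of 4. The housekeeping member was a site 13003 bp from Actb. Most cytokine and chemokine genes had no eligible shared peak at all (4 of 40 and 3 of 20 had at least 1), so the rule could not take them.

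**Figure D3:**
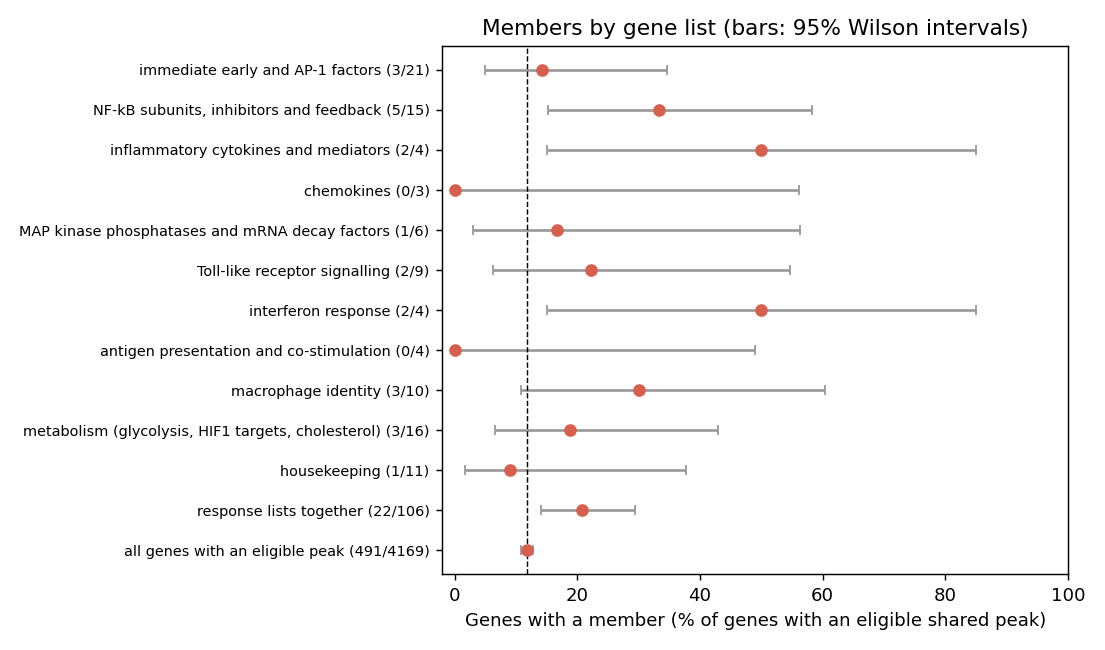
Share of genes with a member among genes with an eligible shared peak, for 11 of the 12 lists, all response lists together and all genes, with 95% Wilson intervals over genes and the overall 11.8% as a dashed line. The NF-kB list stands at 5 of 15, and the intervals of the small lists are wide.

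Most members were near genes outside these lists. Families recognised by symbol, chosen after the members were seen, gave a member at 6 of 26 genes of the respiratory chain and ATP synthase (Atp5c1, Atp5g1, Cox7a2, Cox7a2l, Cox7c and Ndufv2). They gave 6 of 25 among hnRNP and Rbm genes of RNA processing (Hnrnpa2b1, Hnrnpa3, Hnrnpab, Rbm17, Rbm25 and Rbm39) and 3 of 8 subunits of the vacuolar ATPase that acidifies lysosomes. Shares close to the overall 11.8% were seen for ribosomal proteins (3 of 30), histones (3 of 28), proteasome subunits (2 of 17), Rab GTPases (4 of 28), and solute carriers (10 of 68). Zinc finger genes of the Zfp series had 6 of 88. Members were therefore nearest to everyday cellular genes as well as to response genes. The rule took 11.8% of all genes with an eligible peak, and the family shares are a description only.

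In position the members were close to the other eligible peaks, apart from a larger share within 100 bp of a gene end. Within 1 kb of a gene end lay 348 of 493 members (70.6%, Wilson interval over peaks 66.4% to 74.4%) and 68.3% of 4047 other eligible peaks. Closer in, 220 members (44.6%, 40.3% to 49.0%) lay within 100 bp, against 36.7% (35.2% to 38.2%). Over 10 kb away were 84 members (17.0%) and 17.0% of the others. The summit lay inside a gene at 46.5% of members and 48.8% of the others, and the gene table gives no exons, so exon and intron could not be separated. The R848 and untreated summits of members were a median of 62 bp apart, against 54 bp for the others, and 14 members had summits over 300 bp apart, so few pairs joined separate sites. The R848 peaks of members had a median width of 522 bp and their untreated partners 314 bp. For the other eligible peaks these widths were 555 and 414 bp, so R848 peaks were the wider in both groups.

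The share of members differed most with the strength of the untreated peak, which the rule itself uses. Of eligible peaks with 4 or 5 untreated tags, 136 of 205 were members (66.3%), of those with 10 to 14 tags 3.72%, and of those with 25 or more 0 of 292. By chromosome the share ran from 7.55% on chromosome 9 to 15.3% on chromosome 18.

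**Figure D4:**
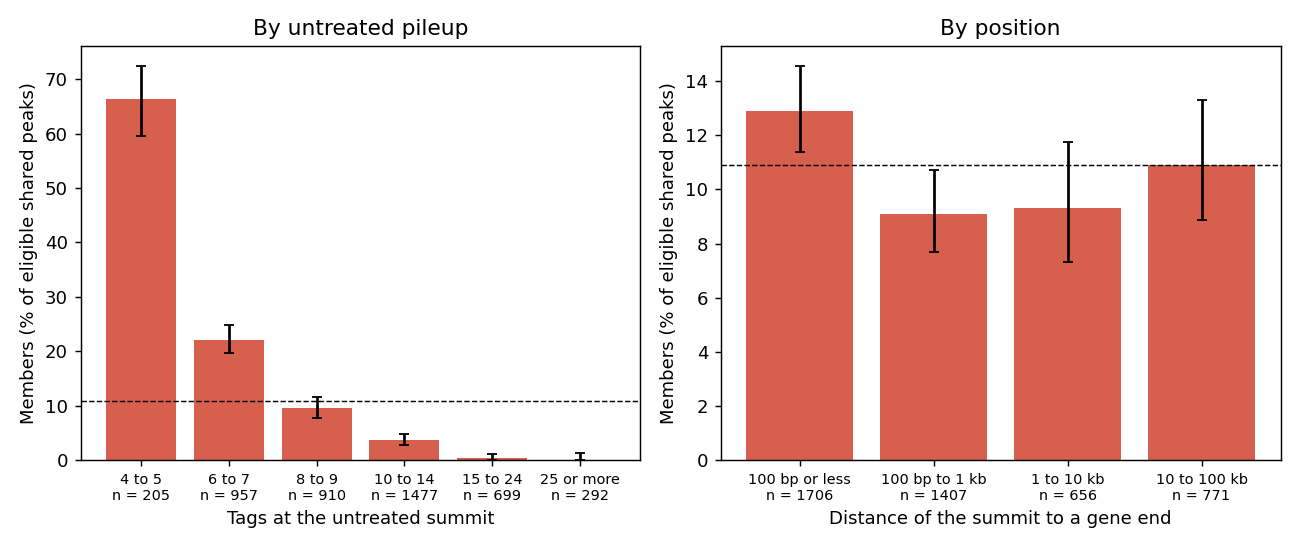
Members as a percent of eligible shared peaks by tags at the untreated summit (left) and by distance of the R848 summit to a gene end (right), with 95% Wilson intervals over peaks and the overall 10.9% as a dashed line. The share drops from 66.3% to 0 with untreated strength and lies between 9.10% and 12.9% over the distance classes.

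The 84 distal members, over 10 kb from any gene end, had a median distance of 25668 bp and a median ratio of 2.28, and 41 of them lay inside a gene. Beside those described above, they included a site 53454 bp from Met, the hepatocyte growth factor receptor gene, with folds of 3.56 and 11.1, and a site 52856 bp from Wnt7b, a Wnt ligand gene, with folds of 6.06 and 14.1 and tags of 11 and 55. A site inside Bcl2, the anti-apoptotic gene, 86907 bp from its nearer end, had folds of 3.56 and 7.93. These 3 were chosen after their values were seen. At 71 of the 84 (84.5%), the nearest gene also had an R848-only peak, a peak with no untreated counterpart. The same held for 82.1% of 687 other distal eligible peaks. For members within 1 kb of a gene end the share was 37.9% of 348, and for the other eligible peaks there 44.9% of 2765. The share was thus higher at distal than at gene-end sites both in members and in the other eligible peaks.

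Sequence was compared in the 300-base RefSeq promoter windows, from 250 bases before to 50 after a start, that held a summit. They numbered 261 for members and 1972 for the other eligible peaks, beside 20085 autosomal windows of protein-coding genes in all. The NF-kB motif, on either strand, was found in 10.3% of member windows (7.21% to 14.6%), 9.84% of the others and 9.42% of all windows. AP-1 (TGANTCA) was in 5.36%, 3.96% and 7.06%, IRF (GAAA, 2 free bases, GAAA) in 3.45%, 2.03% and 3.38%, PU.1 (GAGGAAGT) in 3.45%, 2.99% and 3.18%, and C/EBP (TTGCNNAA) in 9.20%, 7.41% and 10.3%. For these signal and lineage motifs the intervals of members and others overlapped. Matches to different motifs may overlap each other, and a match is a run of letters and not a bound site.

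The SP motif (GGGGCGGGG), singled out after the values were seen, was the 1 motif of 15 whose intervals did not overlap, with 21.1% of member windows (16.6% to 26.4%) and 33.0% of the others (30.9% to 35.1%). Among windows whose untreated peak had 9 tags or fewer, the shares were 21.1% of 223 and 30.5% of 741, with intervals of 16.2% to 26.9% and 27.3% to 33.9%. At a ratio of at least 3 the share was 30.8% of 13 windows, and with the scaled tag ratio as the measure 27.2% of 419. The GC content had a median of 62.7% in members, 64.3% in the others and 57.0% in all windows, and the CpG ratio 0.826, 0.853 and 0.586. The remaining motifs were CRE (TGACGTCA), STAT (TTCNNNGAA), RUNX (TGTGGT), EGR (GCGTGGGCG), NF-Y (CCAAT), E-box (CACGTG), CTCF, MEF2 (CTA, 4 free bases, TAG) and the CArG box. CCAAT was in 51.0% of member windows, 52.3% of the others and 38.1% of all windows, so members and others shared this feature of open promoters.

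**Figure D5:**
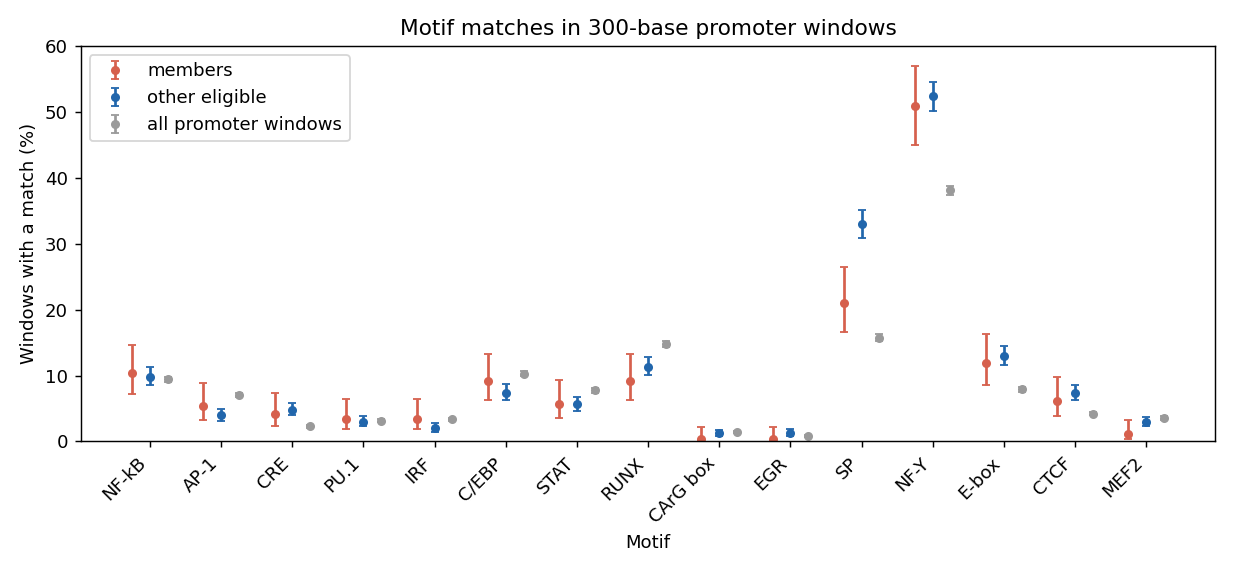
Percent of 300-base promoter windows with a match to each of 15 motifs, for members (red, n = 261), other eligible shared peaks (blue, n = 1972) and all autosomal windows (grey, n = 20085), with 95% Wilson intervals over windows. NF-kB stands at 10.3%, 9.84% and 9.42%, and SP at 21.1%, 33.0% and 15.7%.

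The libraries were checked as a whole. The smallest pileup in a peak was 4 tags in the untreated and 5 in the R848 list, and the total reads of each library are not known here. Of 10 macrophage markers, 9 had a peak nearest to them in the untreated list and 10 in the R848 list, but 3 in each at a −log10 q of at least 5. At that strength the untreated list had no peak at any of 26 markers of lymphoid, neutrophil, erythroid, stromal or endothelial cells, and the R848 list had 1 each at Klrb1c and Klf1. At any strength, all 5 stromal and endothelial markers had a peak nearest to them in both lists; the part of other cells in the values above was not tested. Accessibility in bulk cells does not tell a site open in more cells from a site more open in each cell.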

How the data were processed

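ATAC-seq peaks of 1 untreated and 1 R848 library were used as deposited. The authors ran bcl2fastq 2.19, Bowtie2 2.2.6 and MACS2 2.2.7.1 on mm10, per the submitters' processing notes. Settings, filters and duplicate handling are not given in the sources used here. Columns of the deposited lists are a fold ratio over background, the −log10 p and −log10 q of the summit, a score of 10 times the −log10 p (not used) and the summit offset.

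Pileup and background were solved per peak from the fold and p, matching the p within 0.1% for 99.9% of peaks in each list. The typical background was 0.968 and 1.36 tags. Overlaps, ratios, exact (Clopper-Pearson) tag ratio intervals and Wilson intervals were computed with Python 3.11.15, numpy 2.4.6, pandas 2.3.3 and scipy 1.17.1, checked on simulated data. Intervals cover counting error only, and PCR copies are not independent. Gene ends are those of 21887 protein-coding genes of GRCm38.p6, and each peak takes the nearest.

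Genes were named by rule: the 20 highest ratios, the 5 highest R848 folds, genes with several members, members at genes of 12 lists, and 3 peaks on each side of the limit, and other eligible peaks at a member's gene. The members and lists were chosen with earlier results of these data known. Promoter windows stood in for the summit windows of 50 to 150 bases either side, and none was analysed for the 21 members on chromosome 18. The member of 1 list is not reported here by name. No test was run, since each group is 1 library.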

Additional observations from a re-analysis of the deposited data

How the results depend on the processing

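The results were recomputed under 11 alternatives. The count of members, 493, stayed within 1.5 times under 6 of them. It was 48 with the ratio divided by the median of the eligible peaks, 782 with the scaled tag ratio, 1832 at a ratio of at least 1.5, 28 at 3, and 213 when the untreated peak had to have a −log10 q of at least 2. The tag measure shared 432 peaks with the members, 87.6% of the members and 55.2% of its own. The share of eligible peaks was 7.38% with the −log10 q limit lowered to 2 and 15.6% with it raised to 10, and under the 5 settings above 1.06%, 17.2%, 40.4%, 0.617% and 5.61%. Genes of the response lists numbered 3, 35, 51, 2 and 9 there, against 22. The share within 1 kb of a gene end was 64.3% at a ratio of 3, 79.1% with gene ends within 20 kb and 82.2% with the stronger untreated peaks. The NF-kB motif share moved to 4.0% of 25 windows with the median-centred ratio, where AP-1 was 0%, as it was at a ratio of 3. The SP share, followed after it was seen, was 32.0% and 30.8% in those settings, 27.2% with tags and 28.8% at a ratio of 1.5. Fewer peaks enter under the stricter settings; the cause of the other shifts was not tested. Motif windows of 50 or 150 bases either side of the summit were not run. No paired analysis was possible because each group held 1 library. The untreated peak of the members had a median of 6 tags, so the counting intervals of single ratios are wide.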
